A study of Rattus norvegicus with 12 samples.

Results

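The miR-106b-25 cluster is a set of 3 microRNA (miRNA) hairpins, miR-106b, miR-93 and miR-25, that lie next to each other inside the gene Mcm7. Identifiers carry the rat prefix rno-, mostly left out below. The members were taken as all listed mature miRNAs named miR-106b, miR-93 or miR-25, in either arm. They came to 6 of 641 listed mature rat miRNAs: the 5p and 3p arms of each hairpin. Small RNA was sequenced from aortas of female spontaneously hypertensive rats (SHR), an inbred rat strain in which blood pressure becomes high without treatment. The tested animals carried the treatment label EWH (6 libraries) and the controls had received saline (6 libraries). EWH is not spelled out; the title of the series speaks of peptides derived from egg white. Dose, duration and age are not given in the sources used. All 12 libraries were of the same strain, sex and tissue, and no label states whether each library is a different animal, so p-values measure spread among libraries that may be technical in part.

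MiRNAs are short RNAs that are cut from a hairpin in the transcript and pair with messenger RNAs, mainly through the seed, bases 2 to 8 from the 5′ end, to lower their translation and stability. The 3 hairpins are transcribed with Mcm7, which encodes a subunit of the replicative DNA helicase, and in human cells the transcription factor E2F1 is known to raise their transcription. MiR-106b-5p and miR-93-5p are known in human cells to repress the cell cycle inhibitor CDKN1A, and miR-25-3p to repress the apoptosis gene BCL2L11, so the cluster is known mostly from proliferating cells and tumours. In rodent heart and kidney, miR-25-3p is also known to act on the calcium pump gene Atp2a2 and on Nox4, a source of reactive oxygen.

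The hairpins of the cluster span 494 bases of chromosome 12 (RefSeq, GRCr8), inside the span of Mcm7 (chr12:22155921-22163320, minus strand). The 6 mature sequences are shown because the seed sets which of them belong to the same family. Capitals mark the seed, all run 5′ to 3′, and all lie on the minus strand of GRCr8.
rno-miR-106b-5p (chr12:22157103-22157123): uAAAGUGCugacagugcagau
rno-miR-93-5p (chr12:22156894-22156916): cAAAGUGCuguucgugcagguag
rno-miR-25-3p (chr12:22156652-22156673): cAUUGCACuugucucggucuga
rno-miR-106b-3p (chr12:22157062-22157083): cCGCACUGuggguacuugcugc
rno-miR-93-3p (chr12:22156856-22156878): aCUGCUGAgcuagcacuucccga
rno-miR-25-5p (chr12:22156690-22156711): aGGCGGAGacacgggcaauugc
MiR-106b-5p and miR-93-5p share the seed AAAGUGC with miR-17-5p, miR-20a-5p and miR-20b-5p of the paralogous clusters, and miR-25-3p shares AUUGCAC with miR-92a-3p, miR-92b-3p, miR-363-3p and miR-32-5p. The paralogs nearest to the members in sequence or in their pattern across libraries are these.
rno-miR-17-5p: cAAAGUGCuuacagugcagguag
rno-miR-20a-5p: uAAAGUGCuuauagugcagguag
rno-miR-92a-3p: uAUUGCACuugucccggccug
MiR-93-5p differs from miR-17-5p by 3 edits, miR-25-3p from miR-92a-3p by 4 and miR-106b-5p from miR-17-5p and miR-20a-5p by 5 each, while miR-17-5p and miR-20a-5p differ by 2. How reads that fit several of these were assigned is not stated in any source used, so values of such close relatives are uncertain to that extent. RefSeq also assigns the sequence of miR-17-5p to a second hairpin, Mir106a on chromosome X, and that of miR-92a-3p to Mir92a2 on the same chromosome beside Mir92a1 on chromosome 15, so the reads of these 2 miRNAs cannot be assigned to 1 locus.

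The arms of each hairpin were present at very unequal levels, as the hairpins of miR-93 and miR-25 illustrate, with both mature arms in capitals.
Mir93 (chr12:22156844-22156930, minus strand): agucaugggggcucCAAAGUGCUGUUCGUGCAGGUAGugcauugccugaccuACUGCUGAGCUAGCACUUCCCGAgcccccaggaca
Mir25 (chr12:22156641-22156724, minus strand): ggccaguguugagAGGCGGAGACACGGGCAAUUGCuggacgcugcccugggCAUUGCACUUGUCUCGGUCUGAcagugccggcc
In miR-93 the 5p arm held 98.9% ± 0.636 of the reads of both arms in EWH and 98.7% ± 0.451 in control (SD, n = 6 each). In miR-25 the 3p arm dominated, and over all 12 libraries 20 reads fell in miR-25-5p against 113584 in miR-25-3p. In miR-106b, whose 5p arm is the one with the shared seed, the 3p arm was the more abundant in all 12 libraries, and the 5p arm held 17.4% ± 3.53 in EWH and 20.0% ± 3.31 in control (SD, n = 6 each). The arm ratio of miR-106b was compared as log2((5p + 1)/(3p + 1)) in reads-per-million (rpm) units. It was −2.14, −2.59, −1.68, −2.11, −2.22 and −1.83 in EWH 1 to 6, against −2.23, −1.56, −2.10, −1.97, −1.91 and −1.63 in control 1 to 6. The groups overlapped, and the difference of −0.20 (95% interval −0.54 to 0.15) did not pass limma at a Benjamini-Hochberg adjusted p of 0.591 over the 67 hairpins with both arms tested, of which none passed (0%) and 13 lay under an unadjusted limma p of 0.05 (19.4%). It was −0.28 to −0.097 with a library left out, the smallest without EWH 2 and −0.13 without control 2, and −0.30 without EWH 3 and 4.

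Levels of the members are given as the deposited rpm, where 1 read was worth 0.0404 to 0.0419 rpm. Library totals were 23887799 to 24772944 reads, and the listed miRNAs held 76.4% to 80.6% of them. All 6 members together came to 346 to 532 rpm in EWH and 450.1 to 718 rpm in control, most of it miR-25-3p, whose share of that sum was 84.2% ± 1.07 in EWH and 79.7% ± 3.39 in control (SD, n = 6 each). By mean over 12 libraries the order was miR-25-3p (389 rpm, place 58 among the 641), miR-93-5p (45.7 rpm, place 114), miR-106b-3p (33.8 rpm, place 134), miR-106b-5p (8.01 rpm, place 197), miR-93-3p (0.568 rpm) and miR-25-5p (0.0686 rpm). Each of the first 4 was above the next member in this order in 12 of 12 libraries, apart from miR-93-5p, which was above miR-106b-3p in 11 of 12 (all but EWH 2). MiR-93-5p and miR-106b-3p were thus the pair of neighbours closest to each other, with ratios of 0.788 to 1.94 across libraries.

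The smooth muscle miRNAs miR-143 and miR-145, both arms, summed to 331968 to 428677 rpm in EWH and 347013 to 426858 rpm in control. Nearly all of this was miR-143-3p, while miR-145-5p read 755 to 1551 rpm over the 12 libraries. The endothelial miR-126a summed to 4264 to 6913 rpm in EWH and 3290 to 12305 rpm in control. Markers of other cell types were also present and uneven between libraries. Epithelial miRNAs (8 listed markers, of which 2 were higher and 6 lower in EWH by the unfiltered limma fit and none passed) summed to 82.4 to 372 rpm in EWH and 63.7 to 722 rpm in control, and none of the 8 was at 0 in any library. Of these markers 4 were highest in control 6 (miR-200a-3p, miR-200b-3p, miR-200c-3p and miR-141-3p), while miR-203a-3p was highest in control 1 and miR-205, miR-375-3p and miR-429 in EWH 4. MiR-200b-3p read 3.54 to 10.2 rpm in EWH, against 8.69, 4.47, 3.58, 58.6, 176 and 501 rpm in control 1 to 6. Leukocyte miRNAs (4 markers, all lower in EWH with a median log2 difference of −0.36, none passing) summed to 101 to 181 rpm in EWH and 84.4 to 228 rpm in control, and none was highest in control 6. Erythrocyte miRNAs (4 markers, 2 higher and 2 lower, none passing) summed to 119 to 384 rpm in EWH and 80.4 to 364 rpm in control. Neuronal and glial miRNAs (6 markers, all higher in EWH by the same fit, none passing) summed to 116 to 966 rpm in EWH and 80.7 to 190 rpm in control, with miR-219a-5p at 0 in most libraries. Their highest libraries were EWH 3 and EWH 4, which also stood apart on the first principal component (−11.97 and −16.2, the others −4.94 to 7.94, 46.3% of the variance). The part of these cell types in the members' values was not tested. Differences are also given without control 5 and 6, or without EWH 3 and 4, where that moved them by over 1.5 times. In whole tissue, fewer cells of a type and less RNA per cell cannot be told apart.

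MiR-93-5p (rno-miR-93-5p), 1 of the 2 members with the AAAGUGC seed, averaged 33.6 ± 6.71 rpm in EWH and 57.9 ± 28.3 rpm in control (SD, n = 6 each). It read 33.2, 21.7, 36.4, 39.4, 39.6 and 31.1 rpm in EWH 1 to 6, against 42.8, 42.9, 39.1, 44.03, 66.6 and 112 rpm in control 1 to 6. All 6 EWH libraries lay below the control median, 4 lay below the lowest control, and 2 (EWH 4 and 5) just above it. Control 6 and control 5 stood above the other 10 libraries. The log2 difference on the log2(rpm + 1) scale was −0.69 (SE 0.26, 95% interval −1.24 to −0.13), with a limma adjusted p of 0.163 by Benjamini-Hochberg over 303 tested miRNAs. On the whole reads behind the values, edgeR gave adjusted p = 0.059 and DESeq2 called it lower at adjusted p = 0.019 (Benjamini-Hochberg). Without control 5 and 6 the difference was −0.35 (limma adjusted p = 0.330), with a control mean of 42.2 rpm.

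MiR-106b-5p (rno-miR-106b-5p), the other member with this seed, averaged 6.13 ± 1.24 rpm in EWH and 9.88 ± 4.21 rpm in control (SD, n = 6 each). Its values were 6.68, 3.75, 7.32, 6.71, 6.06 and 6.24 rpm in EWH 1 to 6, against 7.19, 10.7, 7.04, 7.20, 9.21 and 17.9 rpm in control 1 to 6. Of the EWH libraries 5 lay below the lowest control, and EWH 3 lay just above 3 of the controls. These values rest on 93 to 439 reads per library. The log2 difference was −0.56 (SE 0.23, 95% interval −1.05 to −0.067), at a limma adjusted p of 0.168 (Benjamini-Hochberg), with edgeR at adjusted p = 0.079 and DESeq2 calling it lower at adjusted p = 0.037. Without control 5 and 6 it was −0.35 (limma adjusted p = 0.370).

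MiR-106b-3p (rno-miR-106b-3p), the abundant arm of the same hairpin, averaged 29.2 ± 3.63 rpm in EWH and 38.4 ± 9.77 rpm in control (SD, n = 6 each). It read 32.9, 27.6, 25.7, 32.2, 32.02 and 24.7 rpm in EWH 1 to 6, against 37.4, 33.6, 33.4, 31.02, 37.5 and 57.7 rpm in control 1 to 6. The groups overlapped only through control 4, which lay below 3 of the EWH libraries. The log2 difference was −0.36 (SE 0.16, 95% interval −0.70 to −0.023; limma adjusted p = 0.183, Benjamini-Hochberg), and no other tool called it (edgeR adjusted p = 0.207, DESeq2 0.114). Without control 6 alone the control mean was 34.6 rpm and the difference −0.24, and without control 5 and 6 it was −0.21 (limma adjusted p = 0.437).

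MiR-25-3p (rno-miR-25-3p), the most abundant member, averaged 371 ± 53.3 rpm in EWH and 406 ± 61.9 rpm in control (SD, n = 6 each). Its values were 351, 292, 358, 453, 398 and 373 rpm in EWH 1 to 6, against 390.3, 363, 385, 370.4, 400.3 and 530 rpm in control 1 to 6. EWH libraries lay both below and among the controls, and only control 6 exceeded the highest EWH library. The log2 difference was −0.13 (SE 0.12, 95% interval −0.40 to 0.13; limma adjusted p = 0.560, Benjamini-Hochberg), so a difference of either sign was within the interval. Without control 5 and 6 it was −0.035, without control 6 alone −0.052, without EWH 2 alone −0.065 and without EWH 3 and 4 −0.20.

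The 2 rare arms did not reach the minimum for testing, 1 rpm in at least 6 of 12 libraries. MiR-93-3p read 0.163, 0.283, 0.244, 0.906, 0.374 and 0.251 rpm in EWH 1 to 6, against 0.894, 0.334, 0.453, 0.651, 1.07 and 1.19 rpm in control 1 to 6. With the exception of EWH 4 the EWH libraries lay at the low end, on 54 reads in EWH and 112 in control. MiR-25-5p had 4, 1, 2, 3, 2 and 4 reads in EWH 1 to 6, against 0, 0, 1, 0, 1 and 2 reads in control 1 to 6. All but EWH 1 and 6 were within the 3 reads that a count of 0 allows, so no fold change is given for it. Its few reads lay on the EWH side, unlike those of the other 5 members.

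**Figure D1:**
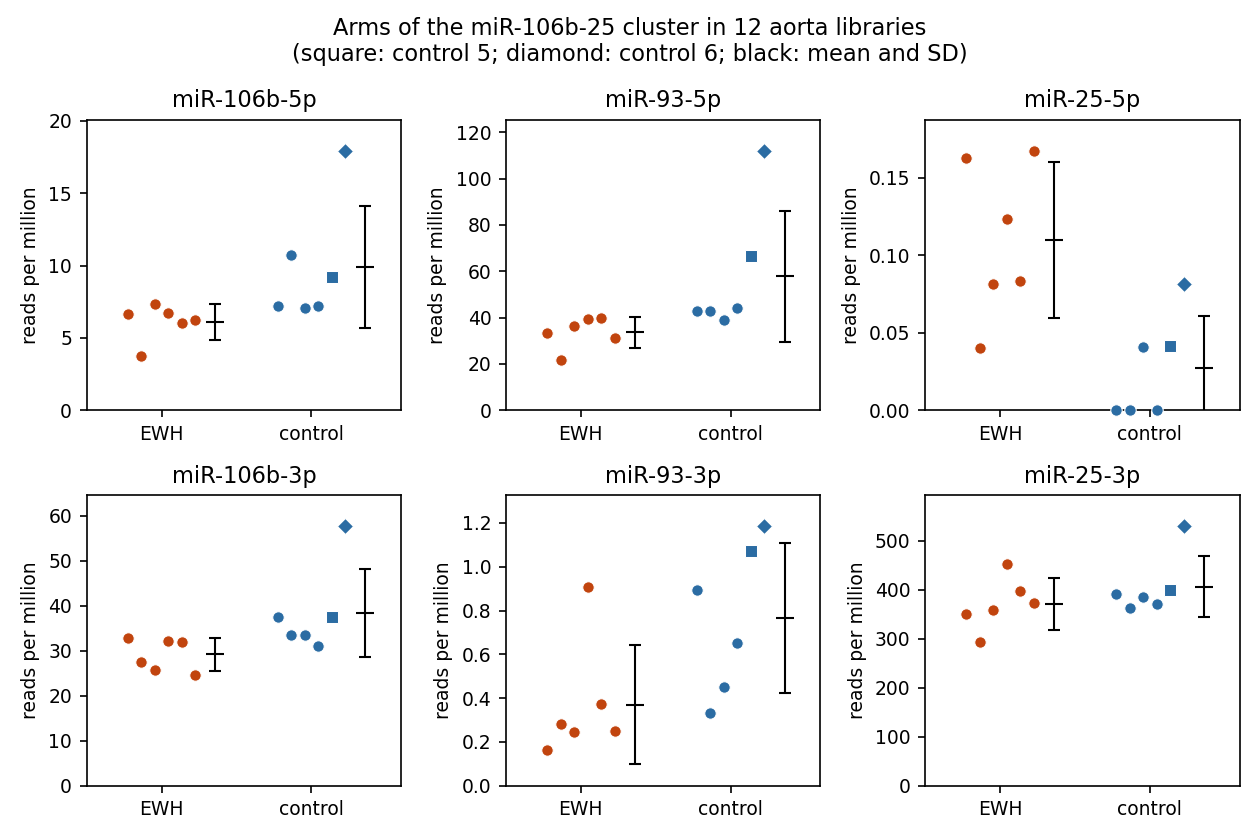
Reads-per-million values of the 6 arms of the miR-106b-25 cluster in each of 6 EWH and 6 control libraries (points; square for control 5, diamond for control 6), with the mean and SD in black. Control 6 is the highest library for 5 of the 6 arms, and all 6 EWH libraries lie below the control median for miR-106b-5p, miR-106b-3p and miR-93-5p.

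Of the 303 miRNAs tested none passed limma at an adjusted p under 0.05 (0%), and 70 had an unadjusted limma p under 0.05 (23.1%), 24 of them lower in EWH (7.92%). MiR-93-5p, miR-106b-5p and miR-106b-3p were among these 24. Without EWH 2 limma called 24 miRNAs, none of them a member. DESeq2 called 63 of 303 (20.8%), 17 of them lower (5.61%), among which were 2 of the 4 tested members, and edgeR called 40 (13.2%), 6 of them lower (1.98%), with none of the members. All 6 EWH libraries lay below the control median in 52 of 303 (17.2%), and in 3 of the 4 tested members. Control 6 was the highest of all 12 libraries in 44 of 303 (14.5%), and in each of the 4 tested members. By sign alone, 182 of 303 were lower in EWH (60.1%), with a median log2 difference of −0.058, and the 4 tested members were lower with a median of −0.46. Without control 5 and 6 the medians of all tested miRNAs and of the members were −0.055 and −0.28. Without EWH 3 and 4 they were −0.11 and −0.51.

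Of the 6 ratios between tested members, 1 differed between the groups after adjustment. Ratios between members within a library do not depend on its depth, and for each of the 6 pairs of tested members the log2 ratio of (rpm + 1) was compared by an exact permutation test of the group labels (two-sided), adjusted over the 6 pairs by Benjamini-Hochberg. MiR-93-5p fell relative to miR-25-3p. This log2 ratio was −3.36, −3.69, −3.26, −3.49, −3.29 and −3.54 in EWH 1 to 6, against −3.16, −3.05, −3.27, −3.04, −2.57 and −2.23 in control 1 to 6. The groups met only at EWH 3 and control 3. The difference was −0.55, from a mean of −3.44 ± 0.16 in EWH and −2.89 ± 0.40 in control (SD, n = 6 each), with an exact permutation p of 0.0043 and an adjusted p of 0.026. It passed without EWH 3 or any single control, while without EWH 1, 2, 4, 5 or 6 the adjusted exact permutation p was 0.052 to 0.065. Without control 5 and 6 the difference was −0.31, and without EWH 3 and 4 it was −0.59 (adjusted exact permutation p = 0.114 each).

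The other ratios to miR-25-3p lay the same way without passing the adjusted threshold. MiR-106b-5p over miR-25-3p averaged −5.72 ± 0.21 in EWH and −5.29 ± 0.33 in control (SD, n = 6 each), a difference of −0.43 (exact permutation p = 0.0238, adjusted p = 0.071). MiR-106b-3p over miR-25-3p averaged −3.62 ± 0.21 and −3.39 ± 0.13 in EWH and control (SD, n = 6 each), a difference of −0.23 (exact permutation p = 0.0498, adjusted p = 0.0996). Between the 2 members with the same seed, miR-106b-5p over miR-93-5p differed by 0.13 (exact permutation p = 0.357 raw and adjusted), with means of −2.27 ± 0.15 in EWH and −2.40 ± 0.28 in control (SD, n = 6 each). This difference was 0.23 without control 2 (exact permutation p = 0.041, adjusted p = 0.082), 0.062 without control 5 and 0.0013 without control 5 and 6. MiR-106b-3p over miR-93-5p differed by 0.32 (adjusted exact permutation p = 0.172), and by 0.13 without control 5 and 6.

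**Figure D2:**
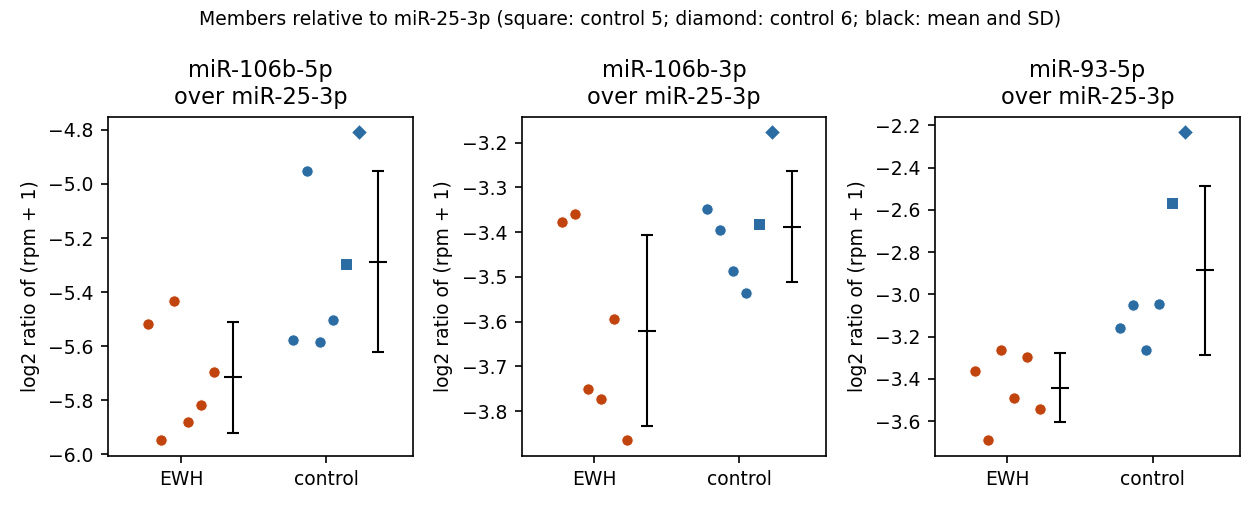
Log2 ratio of (rpm + 1) of miR-106b-5p, miR-106b-3p and miR-93-5p to miR-25-3p in each EWH and control library (points; square for control 5, diamond for control 6), with the mean and SD in black. For miR-93-5p the EWH libraries run from −3.69 to −3.26 and the control libraries from −3.27 to −2.23.

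Across the 12 libraries the members varied together, though largely through single libraries. On log2(rpm + 1) Pearson's r ran from 0.746 (miR-106b-3p and miR-25-3p) to 0.922 (miR-106b-5p and miR-93-5p), with permutation p adjusted over 6 pairs of 0.0132 and 0.0027, and Spearman's rho from 0.322 (miR-106b-5p and miR-25-3p, adjusted permutation p = 0.306) to 0.776 (miR-106b-5p and miR-93-5p, adjusted permutation p = 0.0255). For miR-106b-5p and miR-93-5p r was 0.615 without the 2 libraries farthest from the median (EWH 2 and control 6). For miR-106b-5p and miR-25-3p it was −0.18 without the same 2 libraries, so that relation rested on them. For the arms of miR-106b it was 0.408 in place of 0.801. Within the groups no pair passed after adjustment by the exact permutation test. Within EWH r was 0.875 for miR-106b-5p and miR-93-5p and 0.128 for the arms of miR-106b, and over the 5 EWH libraries other than EWH 2 it was 0.055 and −0.21. Within control it was 0.875 and 0.866, and over the 5 controls other than control 6 it was 0.401 and 0.167. For miR-106b-5p and miR-93-5p the values within each group thus rested largely on 1 library. So did the value within control for the arms of miR-106b. For miR-106b-5p and miR-25-3p r changed sign, to −0.23 without EWH 2 and −0.29 without control 6. The other pairs moved less within each group. Without EWH 2, miR-93-5p and miR-25-3p stood at 0.665 (0.880 with it). Without control 6 they stood at 0.588 (0.928 with it), and miR-106b-3p and miR-93-5p at 0.541 (0.921 with it). Over both groups, miR-93-5p and miR-25-3p fell from 0.845 to 0.310 without EWH 2 and control 6. Without control 6, miR-106b-3p and miR-25-3p stood at 0.776 (0.979 with it).

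The miRNAs with the most similar patterns were mostly listed arms of the miR-17-92 cluster, a paralogous set on chromosome 15 that is also known from proliferating cells, although miR-17-5p and miR-92a-3p are also encoded on chromosome X. The loci of miR-19b-3p were not looked up. Likeness was measured as Pearson's r of log2(rpm + 1) over 12 libraries against 299 other tested miRNAs, and the 3 highest of each member are given as a description. For miR-93-5p they were miR-20a-5p (r = 0.977, rho = 0.951), miR-19b-3p (r = 0.969, rho = 0.881) and miR-17-5p (r = 0.967, rho = 1.0), so that miR-93-5p and miR-17-5p put the 12 libraries in the same order. These 3 values of r were 0.955, 0.945 and 0.978 without EWH 2 and control 6. For miR-106b-5p they were miR-484, miR-20a-5p and miR-17-5p (r = 0.878 to 0.899), which were 0.660 to 0.739 without EWH 2 and control 6. The same 3 came first for miR-106b-3p (r = 0.887 to 0.900), which were 0.668 to 0.775 without EWH 6 and control 6. For miR-25-3p they were miR-32-5p, miR-19b-3p and miR-92a-3p (r = 0.794 to 0.855), which were 0.352 to 0.506 without EWH 2 and control 6. Control 6 was the highest library in each tested member and in each of these similar miRNAs. Control 6 was also the highest in 4 of the 8 epithelial markers, in 1 of the 4 erythrocyte markers (miR-451-5p) and in 1 of the 4 smooth muscle markers (miR-145-3p). The part of these markers in the patterns was not tested.

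**Figure D3:**
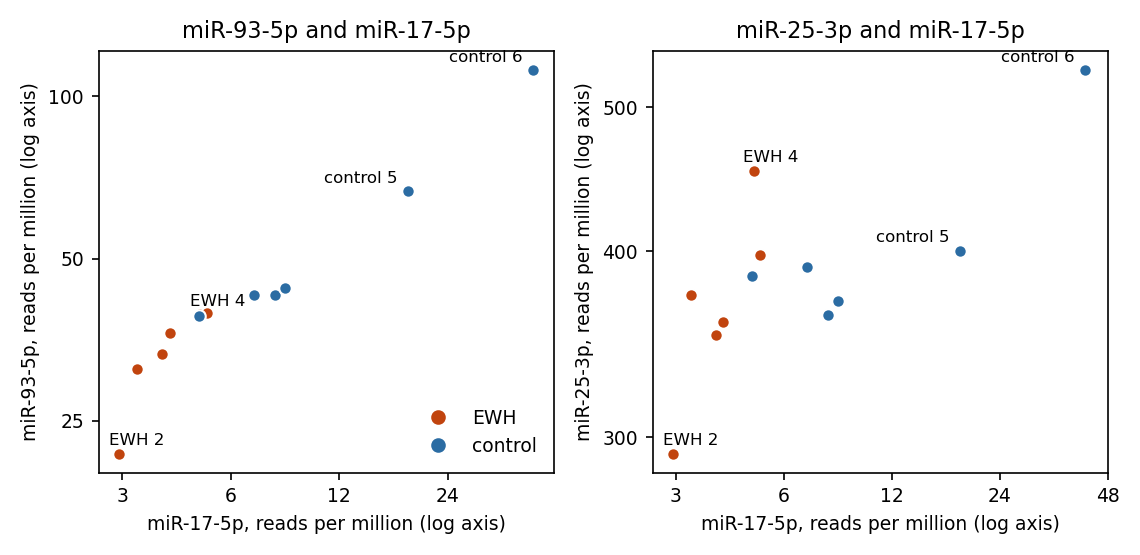
MiR-93-5p (left) and miR-25-3p (right) against miR-17-5p in rpm on log axes, with 1 point per library. MiR-93-5p orders the 12 libraries as miR-17-5p does, while miR-25-3p is at 453 rpm in EWH 4 and 400.3 rpm in control 5, where miR-17-5p is at 4.94 and 18.6 rpm.

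Among the paralogs, the tested arms of the miR-17-92 cluster had lower means in EWH, as the members did, and miR-363-3p of the miR-106a-363 cluster had a higher one. Of 12 listed arms of the miR-17-92 cluster 5 were tested, all 5 with lower means in EWH and a median log2 difference of −0.71. None passed limma on log2(rpm + 1) of all 12 libraries. EdgeR called 2 lower and DESeq2 4, beside 1.98% and 5.61% of all tested miRNAs called lower. With no filter, 10 of the 12 arms were lower and 2 higher, with a median of −0.38, and without control 5 and 6 the median of the 5 was −0.42. MiR-17-5p read 3.87, 2.95, 4.07, 4.94, 5.15 and 3.31 rpm in EWH 1 to 6, against 6.95, 7.98, 4.90, 8.50, 18.6 and 41.4 rpm in control 1 to 6. All EWH libraries but 2 lay below the lowest control, and controls 5 and 6 stood above the rest. Its log2 difference was −1.29 (SE 0.41; limma adjusted p = 0.129, Benjamini-Hochberg), and −0.67 without control 5 and 6. MiR-20a-5p averaged 8.10 ± 2.07 rpm in EWH and 29.4 ± 25.8 rpm in control (SD, n = 6 each), with no overlap between the groups, which was so for 5 of 303 tested miRNAs in either direction (1.65%). Its log2 difference was −1.45, and −0.85 without control 5 and 6. For miR-19a-3p, miR-19b-3p and miR-92a-3p the log2 differences were −0.52, −0.68 and −0.71, and without control 5 and 6 they were −0.12, −0.26 and −0.42; for miR-19a-3p it was −0.29 without control 6 alone. MiR-19b and miR-92a were counted with the miR-17-92 cluster and not with the miR-106a-363 cluster. The contrast between these clusters depends in part on that choice. Of the 4 listed arms of the miR-106a-363 cluster on chromosome X only miR-363-3p was tested, at 5.29 ± 3.17 rpm in EWH and 2.04 ± 1.16 rpm in control (SD, n = 6 each). Its log2 difference was 0.94 (SE 0.41, limma adjusted p = 0.190, Benjamini-Hochberg), and DESeq2 called it higher at adjusted p = 0.047. The difference was 0.58 without EWH 3 and 4, and 1.26 without EWH 2, where limma called it (adjusted p = 0.038).

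The same miRNAs were also grouped by seed instead of by locus. In the family of miR-93-5p, 4 of 5 members were tested and all 4 had lower means in EWH, with a median log2 difference of −0.99, or −0.51 without control 5 and 6. With no filter, 4 of the 5 were lower and 1 was higher (miR-20b-5p), with a median of −0.69. In the family of miR-25-3p, the 5 tested members comprised 3 with lower means (miR-25-3p, miR-92a-3p and miR-32-5p) and 2 with higher means (miR-363-3p and miR-92b-3p), with a median of −0.019, beside −0.058 for all tested miRNAs. None passed limma on log2(rpm + 1) of all 12 libraries in either family, and the difference between the families was not tested. Under other settings limma called miR-363-3p without EWH 2, and miR-20a-5p after quantile normalization (limma adjusted p = 0.047). MiR-92b-3p averaged 3.79 ± 2.91 rpm in EWH and 2.81 ± 1.31 rpm in control, and miR-32-5p averaged 3.50 ± 0.832 rpm in EWH and 3.57 ± 1.01 rpm in control (SD, n = 6 each). The difference of miR-92b-3p was 0.20, −0.059 without EWH 4 (9.30 rpm), −0.17 without EWH 3 and 4 and 0.44 without control 5 and 6. That of miR-32-5p was −0.019, −0.12 without EWH 3 and 4 and 0.056 without control 5 and 6. The median of the miR-25-3p family was 0.056 without control 5 and 6 (3 of 5 higher) and −0.17 without EWH 3 and 4 (4 of 5 lower), and with single libraries left out it ran from −0.095 (without EWH 4) to 0.089 (without control 6) and was 0.074 without EWH 2.

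**Figure D4:**
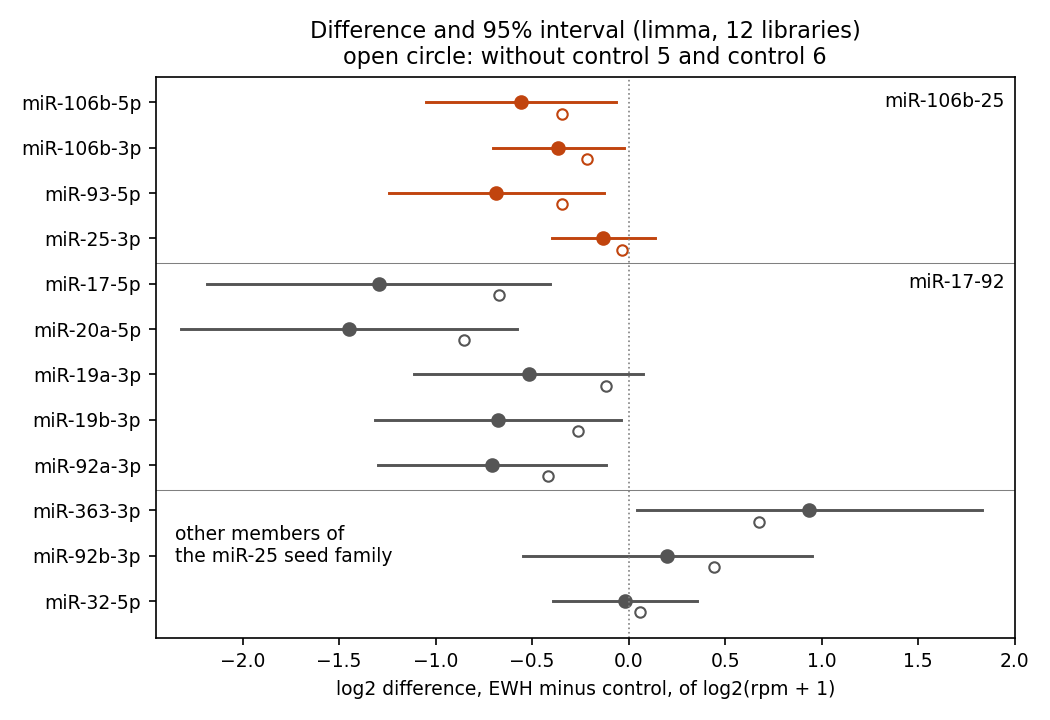
Log2 difference between EWH and control on the log2(rpm + 1) scale with its 95% interval (limma, filled circles and lines), and the same without control 5 and 6 (open circles), for the tested members of the miR-106b-25 cluster, the miR-17-92 cluster and the rest of the miR-25-3p seed family. The values for miR-93-5p are −0.69 and −0.35, and those for miR-25-3p −0.13 and −0.035.

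The start of Mcm7 is shown because the cluster is transcribed with this gene and its members varied with those of the miR-17-92 cluster across libraries. The stretch was taken as 250 bases before and 50 after a start of Mcm7 in RefSeq's GRCr8. On this strand the gene span given above begins at 22163320, inside the stretch, so part of the 250 bases lies within that span. The match TTTCGCGC lies in that part, and GCGGGAAA does not. Capitals mark matches to the E2F motif, spelled TTTCCCGC, TTTCGCGC, TTTGCCGC or TTTGGCGC on either strand.
Mcm7 (chr12:22163129-22163428, minus strand): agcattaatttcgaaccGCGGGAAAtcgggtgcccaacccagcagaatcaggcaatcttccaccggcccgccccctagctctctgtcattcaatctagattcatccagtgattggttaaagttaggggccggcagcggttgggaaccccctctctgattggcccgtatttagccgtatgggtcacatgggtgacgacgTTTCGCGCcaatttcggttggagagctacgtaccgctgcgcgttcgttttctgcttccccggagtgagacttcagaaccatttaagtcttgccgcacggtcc
It held 2 matches, 1 on each strand, and 716 of 33469 promoters of this length (2.14%) held at least 1. CCAAT, a common promoter motif, occurred 3 times on either strand, and at least once in 37.5% of the promoters; 1 of these overlaps the last base of the E2F match TTTCGCGC. A match is a run of letters in this window and no measure of binding.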

How the data were processed

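Small RNA reads of 12 rat aorta libraries (6 EWH, 6 saline control) were processed by the authors with genome build rn6, per the submitters' processing notes. No source used here names the aligner, counting tool, miRNA annotation, strand setting or handling of multiple mapping. The authors' deposited values are in RPM (reads-per-million) units, though the table is named for another unit: each was a whole multiple of 1 step per library, which gave whole reads for 100.0% of values within 0.01 read. Columns were mapped to samples by description, and groups came from titles.

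The cluster, lists and tests were chosen with earlier results of these data known. The 303 miRNAs that reached 1 rpm in 6 or more libraries were tested on log2(rpm + 1), which understates differences of low miRNAs, with limma 3.58.1 (trend, two-sided, R 4.3.3) and Benjamini-Hochberg adjustment over all of them, at a threshold of 0.05. EdgeR 4.0.16 (quasi-likelihood) and DESeq2 1.42.0 were run on recovered reads as alternatives. Arm ratios were fitted over all hairpins with both arms tested, and ratios between members by exact permutation. Correlations used 100000 permutations over 12 libraries and all 720 pairings over 6. The fits were also run on simulated counts, drawn independently for each miRNA with the same dispersion. In the real libraries miRNAs varied together, so that run gives no measure of the error of the fits here. Named miRNAs were all arms of the cluster, the tested members of its paralogous clusters and seed families, and the 3 most similar of each tested member. Markers named singly were picked from the marker lists after their values were seen. Sequences are from RefSeq (GRCr8), where all 6 members matched by name; no coordinate was taken from rn6. Replicates of a group differed beyond sampling noise in all 30 pairs (chi-square per degree of freedom 125 to 3331), and intervals from read numbers cover counting error only, since no source names molecular identifiers.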

Additional observations from a re-analysis of the deposited data

Results flagged for a closer look

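Control 6 lay apart from the other 5 controls in 6 miRNAs, by a gap of over 0.625 of the group's range (Dixon's limit for 6 samples). It read 57.7 rpm in miR-106b-3p (next control 37.5), 17.9 rpm in miR-106b-5p (next 10.7), 530 rpm in miR-25-3p (next 400.3), 78.9 rpm in miR-20a-5p (next 37.0), 17.8 rpm in miR-92a-3p (next 9.54) and 5.52 rpm in miR-32-5p (next 3.67). In EWH, EWH 2 lay low in miR-106b-5p at 3.75 rpm (next 6.06), and EWH 4 lay high in miR-93-3p at 0.906 rpm (next 0.374) and in miR-92b-3p at 9.30 rpm (next 3.82). In all 40 groups of 6 values were examined and 9 were flagged. Chance flags about 1 in 20 groups of normally distributed values. The values here were rpm without a log, so the 2 shares cannot be compared directly. These miRNAs are not independent of each other, as members and paralogs varied together. Control 6 was also the highest library in 4 of 8 epithelial markers, among them miR-200b-3p (501 rpm), but not in the other 4 (miR-203a-3p, miR-205, miR-375-3p and miR-429). It was also the highest in 1 of 4 erythrocyte markers (miR-451-5p) and 1 of 4 smooth muscle markers (miR-145-3p). The part of these markers in the values was not tested.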

How the results depend on the processing

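Each of the 4 tested members kept its sign under all 24 (miR-106b-5p, which a 10 rpm filter removed) or 25 alternatives, and under limma none was called in any. With each library left out in turn the log2 difference was −0.77 to −0.48 for miR-93-5p, −0.63 to −0.38 for miR-106b-5p, −0.42 to −0.24 for miR-106b-3p and −0.19 to −0.052 for miR-25-3p. DESeq2 called miR-93-5p (−0.75) and miR-106b-5p (−0.65). The number of miRNAs called was 0 to 24 with a library left out (24 without EWH 2, 1 without EWH 4), 1 without EWH 3 and 4, 1 without control 5 and 6, 8 after quantile normalization, 40 by edgeR and 63 by DESeq2. The ratio of miR-93-5p to miR-25-3p ran from −0.63 to −0.42 with a library left out, and was −0.59 without EWH 3 and 4 and −0.31 without control 5 and 6, both uncalled. Correlations lost their call within groups. Within EWH r was 0.128 for the arms of miR-106b, 0.875 for miR-106b-5p and miR-93-5p, 0.701 for miR-106b-5p and miR-25-3p, 0.396 for miR-106b-3p and miR-93-5p, 0.392 for miR-106b-3p and miR-25-3p and 0.880 for miR-93-5p and miR-25-3p; without EWH 2 (5 libraries) they were −0.21, 0.055, −0.23, 0.526, 0.388 and 0.665. Within control these were 0.866, 0.875, 0.827, 0.921, 0.979 and 0.928; without control 6 (5 libraries) they were 0.167, 0.401, −0.29, 0.541, 0.776 and 0.588. Without the 2 farthest libraries the pooled values were 0.408, 0.615, −0.18, 0.673, 0.523 and 0.310. The median of the miR-106a-363 cluster was 0.14 with no filter, which added 3 low arms, and that of the miR-25-3p family was 0.0045 under median-of-ratios scaling 0.056 without control 5 and 6 and −0.17 without EWH 3 and 4. No label states whether equal replicate numbers pair the samples. The correlation of deviations for equal numbers was −0.50 to 0.31, which cannot decide it. With the replicate block no miRNA was called, as without it, and the difference of miR-93-5p was −0.69 (limma adjusted p = 0.235). The causes were not tested.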
